A study of Mus musculus with 4 samples.

Results

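A set of 10 mouse genes of the NF-kB and acute-phase response was followed in single cells of spermatogonial cultures. The members are Nfkbia, Nfkbiz, Tnfaip3, Lcn2, Saa3, C3, Slpi, Il6, Ptgs2 and Icam1. They were picked by symbol from the 32285 genes listed for each library, and all 10 had at least 1 unique molecular identifier (UMI, 1 counted RNA molecule) in the feeder cells of every library used. The set was chosen with the EV to vehicle contrast in feeder cells already known, so its values in that contrast are a description and no test was made on them.

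NF-kB is a family of transcription factors that inhibitor proteins hold in the cytoplasm. Cytokines and microbial products activate kinases that mark the inhibitors for destruction, after which NF-kB enters the nucleus and switches on cytokines, adhesion molecules, secreted defence proteins and its own inhibitors. Acute-phase genes encode secreted proteins that liver and connective tissue cells make in inflammation, and many of them also answer to C/EBP and STAT3 factors. Fibroblasts are a known source of such proteins.

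The cultures were Thy1+ cells taken by magnetic sorting from the testes of 3 pups at postnatal day 6 and grown on STO cells, a mouse embryonic fibroblast line used as a feeder layer. For 3 days they received either PBS (vehicle) or 1 ug/mL of extracellular vesicles (EVs), which had been isolated from mouse testes at postnatal day 7, with 2 libraries per arm, and both arms used STO feeders and Thy1+ cells of the same kind. Single cells of the cultures were profiled by droplet 3' RNA sequencing, and nothing in the labels ties a replicate to a separate set of pups. Counts were used from vehicle 1, vehicle 2 and EV 1, while the expression of EV 2 was not analysed here, so the EV arm has 1 library and no comparison between arms could be tested across samples.

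Cells were called feeders when their UMIs of Col1a1, Col1a2, Sparc and Dcn numbered at least 2 and exceeded those of Dazl, Tex15, Stk31 and Epcam, and germ cells in the reverse case. There were 2346, 2477 and 2510 feeders in vehicle 1, vehicle 2 and EV 1, and 4421, 4780 and 226 germ cells. Cells of neither class were 18.1%, 16.0% and 42.7% of each library. Feeders had a median of 3620.5, 3899 and 2447.5 UMIs, so EV 1 was both shallower per cell and poor in germ cells. Fibroblast markers that the class rule did not use summed to between 1870 and 1974 CPM (UMIs scaled to 1e6 UMIs of the class) in feeders. In germ cells the sum of the same 10 markers, most of which is Fn1, stood at 12.9%, 11.1% and 19.6% of its feeder level. Taken singly, these markers ran from 4.27% for Pdgfra to 162% for Fbn1 in vehicle 1, so they set no common background of feeder RNA. The 8 germ cell markers outside the rule summed in feeders to 3.20%, 2.63% and 1.57% of their germ cell level. Macrophage markers in feeders summed to between 24.9 and 35.5 CPM, with 7 of 10 under 5 CPM in every library and Ptprc at no more than 0.947 CPM. Of these markers Cd68, a lysosomal membrane protein, was at 6.74, 6.12 and 17.8 CPM and was called higher in EV 1 by the 2-fold rule given below, and its part in the results was not tested. Of the 4 neutrophil markers, S100a8 alone passed 5 CPM, at 27.5, 11.0 and 34.3 CPM in vehicle 1, vehicle 2 and EV 1, while Ly6g was at no more than 1.47 CPM. At most 22 barcodes were shared between any pair of libraries.

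The promoters of Il6 and of the inhibitor genes Nfkbia and Tnfaip3 are shown because they hold the sequence that gives the set its name. RefSeq promoters (GRCm38.p6, 250 bases before to 50 after the start site) were found for 9 of the 10 members, all but Nfkbiz. The NF-kB consensus, searched on both strands, was in the promoters of 3 of these 9, Il6, Nfkbia and Tnfaip3, and in 8.46% of all 32851 promoters of the same length. Each sequence runs 5′ to 3′ on the strand of the gene, and capitals mark the consensus, which is 44 bases before the start of Il6, 29 before that of Nfkbia, and 125 and 12 before that of Tnfaip3.
Il6 (chr5:30012864-30013163, plus strand): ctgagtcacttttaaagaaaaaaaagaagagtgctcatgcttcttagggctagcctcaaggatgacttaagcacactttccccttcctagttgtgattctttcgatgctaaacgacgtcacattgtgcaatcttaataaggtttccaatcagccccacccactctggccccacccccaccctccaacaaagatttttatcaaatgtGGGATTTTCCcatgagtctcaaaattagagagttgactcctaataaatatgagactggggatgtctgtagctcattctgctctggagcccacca
Nfkbia (chr12:55492598-55492897, minus strand): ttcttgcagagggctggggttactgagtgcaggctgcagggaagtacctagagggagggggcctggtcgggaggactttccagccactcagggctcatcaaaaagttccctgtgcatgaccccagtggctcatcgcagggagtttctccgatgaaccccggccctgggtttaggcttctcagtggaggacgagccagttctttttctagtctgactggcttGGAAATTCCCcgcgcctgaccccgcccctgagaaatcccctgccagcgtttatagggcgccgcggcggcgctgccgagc
Tnfaip3 (chr10:19015361-19015660, minus strand): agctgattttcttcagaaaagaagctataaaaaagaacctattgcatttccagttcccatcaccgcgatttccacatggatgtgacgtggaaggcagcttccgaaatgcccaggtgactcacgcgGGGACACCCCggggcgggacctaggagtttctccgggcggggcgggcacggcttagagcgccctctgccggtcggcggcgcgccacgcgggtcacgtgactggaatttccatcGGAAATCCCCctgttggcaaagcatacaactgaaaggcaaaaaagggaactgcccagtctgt

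The promoters of C3 and Ptgs2 held no such match. A stretch of each is given because these were the members that stood over 2-fold apart between EV 1 and vehicle in feeders. The C/EBP motif TTNNGNAA, in capitals and searched on both strands, occurred 3 times in the C3 stretch and 2 times in the Ptgs2 stretch, both of which run from 80 to 10 bases before the start. It was in the promoters of 8 of the 9 members and in 40.7% of all promoters.
C3 (chr17:57228146-57228216, minus strand): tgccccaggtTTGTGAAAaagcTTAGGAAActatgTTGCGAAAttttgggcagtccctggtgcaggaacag
Ptgs2 (chr1:150099951-150100021, plus strand): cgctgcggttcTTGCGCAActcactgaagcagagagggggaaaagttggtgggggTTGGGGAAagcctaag

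In feeders, 1 member was higher and 1 lower by the 2-fold call. Ptgs2 was 2.63-fold higher in EV 1, C3 was 3.09-fold lower, and Slpi was lower by 1.90-fold. Nfkbia, Nfkbiz, Tnfaip3 and Lcn2 were near their vehicle levels, and Saa3, Il6 and Icam1 rested on few cells or few UMIs. A gene was called when EV 1 was at least 2-fold from the vehicle mean and outside the range of the vehicle libraries. Among the 9704 genes with at least 200 UMIs in feeders, 1.41% were called higher and 2.82% lower, and 7 of the 10 members reached that minimum. With DESeq2 size factors these shares were 1.85% and 2.26%. The median log2 ratio was -0.05 over all 10 members and -0.13 over the 9704 genes. The members were chosen on this contrast, so nothing is read from these counts. Intervals below are 95% and cover counting error alone.

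**Figure D1:**
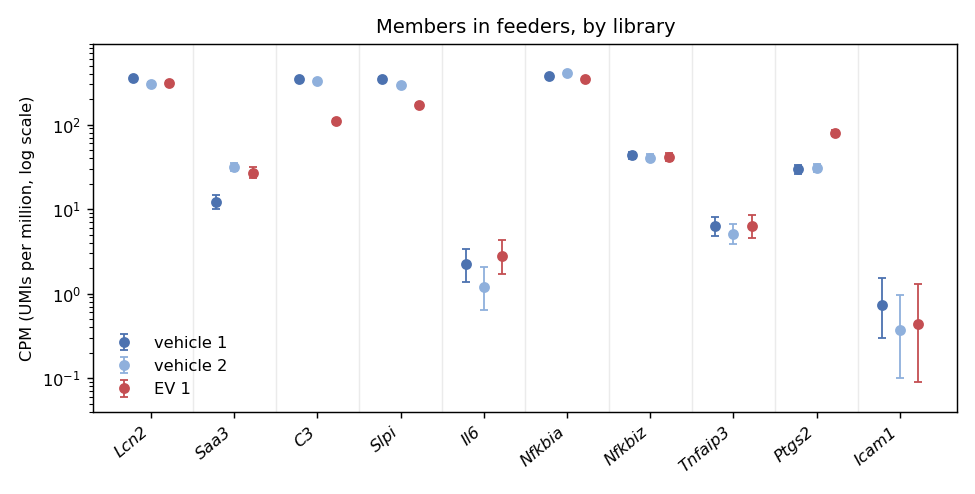
Level of each member in feeders as CPM on a log axis, with 1 point per library and exact Poisson 95% intervals. Ptgs2 in EV 1 (79.0 CPM) lies above both vehicle libraries, C3 (109 CPM) and Slpi (169.9 CPM) lie below them, and the points of Lcn2 and Nfkbiz lie close together.

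Nfkbia (chr12:55489410-55492647) encodes IkB-alpha, the inhibitor that holds NF-kB in the cytoplasm and is itself a rapid NF-kB target. Its level in feeders was 378 CPM in vehicle 1, 413 CPM in vehicle 2 and 344 CPM in EV 1. EV 1 was thus the lowest of the 3 libraries, with a log2 ratio over the mean of both vehicle libraries of -0.20 (vehicle 395 ± 25.2 CPM, SD, n = 2). Nfkbiz (chr16:55811375-55838899) encodes IkB-zeta, a nuclear protein needed for the induction of a subset of targets that includes Il6 and Lcn2. It stood at 43.4, 40.6 and 41.3 CPM in vehicle 1, vehicle 2 and EV 1, so that EV 1 fell between the vehicle libraries. Tnfaip3 (chr10:19000910-19015657) encodes A20, a ubiquitin-editing enzyme that shuts off signalling to NF-kB. Its 6.31, 5.10 and 6.33 CPM came from 60, 55 and 43 UMIs, and the ratio of EV 1 to the pooled vehicle libraries was 1.12 with an interval of 0.767 to 1.60.

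C3 (chr17:57203970-57228136) encodes the central component of complement. It stood at 342 CPM in vehicle 1, 332 CPM in vehicle 2 and 109 CPM in EV 1. The vehicle libraries lay close together and EV 1 lay well below both, at a log2 ratio of -1.63 (vehicle 337 ± 6.97 CPM, SD, n = 2). The ratio to the pooled vehicle libraries was 0.324, with an interval of 0.300 to 0.350. The gene Mir6978 lies within C3 on the same strand, and Mir7678 within Slpi.

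Slpi (chr2:164354070-164389095) encodes a secreted inhibitor of leukocyte proteases. Its level was 351 CPM in vehicle 1, 294 CPM in vehicle 2 and 169.9 CPM in EV 1. EV 1 was below both vehicle libraries at a log2 ratio of -0.92 (vehicle 323 ± 40.5 CPM, SD, n = 2), short of the 2-fold call. The ratio to the pooled vehicle libraries was 0.530, with an interval of 0.497 to 0.564. Slpi passed the call when vehicle 2 was left out (-1.05), when the 1% of feeders richest in it were removed (-1.11), when feeders were taken from clusters (-1.05) and when cells were averaged with equal weight (-1.02).

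Lcn2 (chr2:32384633-32388252) encodes lipocalin 2, which binds bacterial iron carriers. Its level was 353 CPM in vehicle 1, 306 CPM in vehicle 2 and 313 CPM in EV 1. EV 1 lay between the vehicle libraries, at a log2 ratio of -0.07. Saa3 (chr7:46711998-46715700) encodes an acute-phase serum amyloid protein made outside the liver. It stood at 12.2, 31.8 and 27.1 CPM in the same order, so the vehicle libraries differed from each other by 2.61-fold and EV 1 lay between them. Its log2 ratio of 0.30 carried no stable sign. It was 1.15 without vehicle 2, -0.23 without vehicle 1, and -0.86 once the 1% of feeders richest in Saa3 were left out.

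Ptgs2 (chr1:150100031-150108227) encodes cyclooxygenase 2, the inducible enzyme that starts prostaglandin synthesis. Its level was 29.7 CPM in vehicle 1, 30.4 CPM in vehicle 2 and 79.0 CPM in EV 1. The vehicle libraries were nearly equal and EV 1 lay above both, at a log2 ratio of 1.39 (vehicle 30.1 ± 0.536 CPM, SD, n = 2). The ratio to the pooled vehicle libraries was 2.63, with an interval of 2.33 to 2.95.

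Il6 (chr5:30013114-30019981) encodes interleukin 6, the main cytokine inducer of acute-phase genes. It had 21, 13 and 19 UMIs over all feeders of vehicle 1, vehicle 2 and EV 1, or 2.21, 1.21 and 2.80 CPM. The ratio of EV 1 to the pooled vehicle libraries was 1.67 and its interval, 0.899 to 3.01, spanned equality. Il6 was called higher within cluster 0 of the feeders, the larger of 2 clusters described below, at 0.845, 1.15 and 3.16 CPM from 7, 11 and 18 UMIs, with a ratio of 3.13 (1.54 to 6.38), while cluster 3 held 5, 1 and 1 UMIs. Il6 also passed the call in feeders thinned to 1000 UMIs (1.48, from 1, 2 and 5 UMIs), in feeders taken from clusters (1.29) and with cells of neither class added (1.01). Its log2 ratio was 1.20 without vehicle 1, where 1 vehicle library sets no range, and 0.34 without vehicle 2. In feeders over 4000 UMIs the ratio to the pooled vehicle libraries was 0.890 (0.171 to 2.96). Icam1 (chr9:21015985-21028817) encodes an adhesion molecule that binds leukocyte integrins. It had 7, 4 and 3 UMIs in feeders, too few at this depth to show a difference.

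Feeders of each library were also divided by their depth. Feeders with under 2000 UMIs made up 17.6%, 14.2% and 35.0% of the class in vehicle 1, vehicle 2 and EV 1. C3 in feeders over 4000 UMIs was 339, 336 and 99.8 CPM, and in those under 2000 UMIs it was 282, 346 and 137 CPM. Ptgs2 in feeders over 4000 UMIs was 29.5, 31.3 and 73.5 CPM, and under 2000 UMIs 55.1, 28.1 and 79.9 CPM, with 32 and 14 UMIs behind the vehicle values. In each of the 3 depth ranges C3 and Slpi were lower and Ptgs2 higher in EV 1 than in both vehicle libraries. Lcn2 was at its lowest in the shallowest feeders of all 3 libraries, and EV 1 was above both vehicle libraries under 4000 UMIs and below both over 4000 UMIs, at 285 CPM against 386 and 315 CPM. Nfkbia was likewise lowest in the shallowest feeders.

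**Figure D2:**
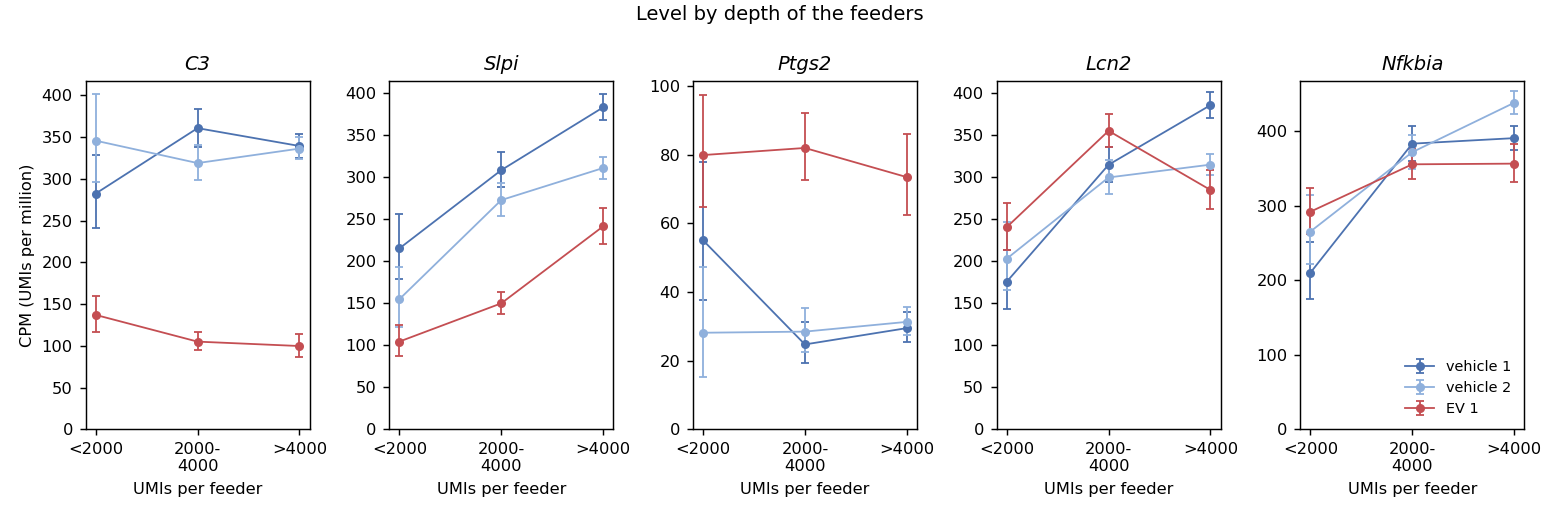
CPM of C3, Slpi, Ptgs2, Lcn2 and Nfkbia in feeders with under 2000, 2000 to 4000 and over 4000 UMIs, with 1 line per library and exact Poisson 95% intervals. The EV 1 line of C3 and Slpi lies under both vehicle lines in all 3 ranges and that of Ptgs2 above them, while the lines of Lcn2 and Nfkbia cross.

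The makeup of the feeder class also differed between libraries. Feeders with a UMI of Mki67 or Top2a, which mark dividing cells, were 12.2%, 11.3% and 2.19% of the class in vehicle 1, vehicle 2 and EV 1. Those with at least 2 UMIs of 5 interferon-response genes were 14.4%, 13.8% and 2.71%. With each feeder drawn down to 1000 UMIs, a comparison added after the data were seen, the shares were 4.51%, 4.13% and 1.03% for Mki67 or Top2a and 2.96%, 3.26% and 0.645% for the interferon-response genes. The intervals of EV 1, 0.695 to 1.53% and 0.392 to 1.06%, overlapped neither vehicle interval. Among feeders in neither of these groups, C3 was 339, 332 and 107 CPM and Ptgs2 28.1, 28.7 and 80.1 CPM in vehicle 1, vehicle 2 and EV 1. Within the interferon-positive feeders C3 was 345, 353 and 159 CPM. Lcn2 in the same cells was 371, 312 and 622 CPM, the last from 145 UMIs in 68 cells, with a ratio to the pooled vehicle libraries of 1.83 and an interval of 1.53 to 2.17. That interval treats UMIs as independent, although 3.15% of all EV 1 feeders held 50% of the Lcn2 UMIs, so it is too narrow. In feeders with a UMI of Mki67 or Top2a, Lcn2 was at 375, 187 and 156 CPM, the last from 28 UMIs in 55 cells. The ratio was 0.558 with an interval of 0.368 to 0.812. The vehicle libraries differed from each other there, with vehicle 2 at 0.499 of vehicle 1. The interval of EV 1, 103 to 225 CPM, overlapped that of vehicle 2, 167 to 210 CPM.

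Leiden clustering placed most feeders in clusters 0 and 3, numbered by size. Cluster 3 held 15.1%, 14.6% and 20.8% of the feeders of vehicle 1, vehicle 2 and EV 1, and its feeders had a median of 2121, 2177 and 1622 UMIs against 4047, 4314 and 2740 in cluster 0. The secreted proteins split between these clusters. Lcn2 in cluster 3 stood at 9.72%, 11.5% and 16.1% of its cluster 0 level, and Slpi at 16.1%, 16.0% and 20.9%. C3 in cluster 3 was at 119%, 114% and 112% of its cluster 0 level, and Nfkbiz at 153%, 157% and 185%. Nfkbia lay between, at 40.0%, 46.4% and 39.7%. These genes took part in the clustering, so the split is a description. C3 was lower in EV 1 within both clusters, at 108 against 343 and 332 CPM in cluster 0 and at 121 against 406 and 378 CPM in cluster 3. Ptgs2 was higher within both, at 79.9 against 28.0 and 28.3 CPM and at 77.0 against 34.0 and 46.2 CPM.

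Single feeders differed in how they held these RNAs. In vehicle 1, Lcn2, C3, Slpi and Nfkbia had between 3251 and 3588 UMIs each. There, 3.28% of feeders held 50% of the Lcn2 UMIs and 3.20% held 50% of the Slpi UMIs, whereas 12.7% and 13.9% were needed for C3 and Nfkbia. The single feeder richest in Slpi held 89 of its UMIs in vehicle 1, 107 in vehicle 2 and 73 in EV 1. For C3 those maxima were 20, 27 and 7. Saa3 was the most concentrated of the members with at least 200 UMIs, since 12, 5 and 4 feeders held 50% of its UMIs, and the richest cell held 6.90% of them in vehicle 1, 22.2% in vehicle 2 and 22.3% in EV 1.

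**Figure D3:**
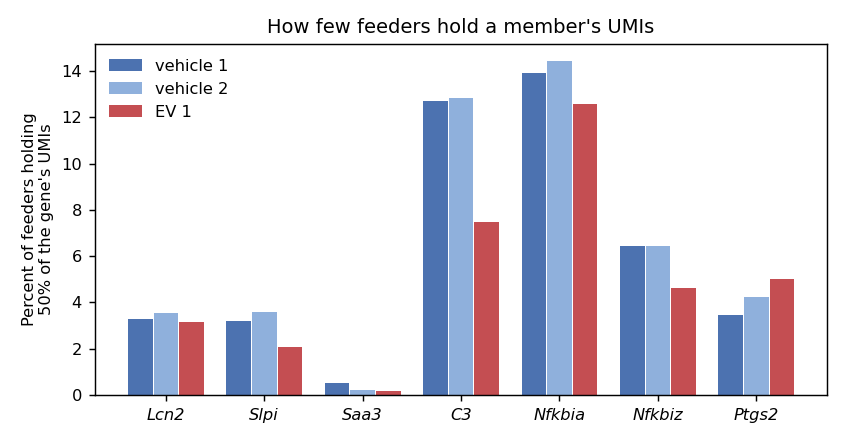
Percent of the feeders of each library that together hold 50% of a gene's UMIs, ranked from the richest cell, for the 7 members with at least 200 UMIs in feeders. Bars of Lcn2, Slpi and Saa3 stay under 4% and those of Nfkbia lie over 12%.

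To compare shares of cells, each feeder was drawn down to 1000 UMIs, which left out 86, 55 and 186 shallower feeders of vehicle 1, vehicle 2 and EV 1. C3 was then detected in 26.8% (Wilson interval 25.0 to 28.6%) and 25.7% (24.0 to 27.5%) of vehicle feeders and in 10.6% (9.44 to 11.9%) of EV 1 feeders. In germ cells treated the same way C3 was found in 3.84%, 2.44% and 6.74%. Before thinning, C3 was detected in 56.5%, 57.4% and 22.3% of feeders and Ptgs2 in 9.46%, 10.9% and 15.7%. The Ptgs2 share in EV 1 over the vehicle mean was 1.54 before thinning and 2.64 after it. Slpi was detected in 17.4%, 15.0% and 9.60% of thinned feeders, and Ptgs2 in 2.74%, 2.64% and 7.10%. Lcn2 was detected in 15.7%, 15.5% and 14.9% and Nfkbia in 27.2%, 28.8% and 26.9%, with overlapping intervals for the 3 libraries. For C3, Slpi and Ptgs2 the interval of EV 1 overlapped neither vehicle interval, but these intervals count cells and not libraries. The share of all genes with such intervals was not computed, and the members were chosen on this contrast, so nothing is read from it. At least 1 member was detected in 63.8%, 62.2% and 52.8% of thinned feeders.

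Within single feeders the 5 pairs with the highest mean correlation were all pairs of Lcn2, Slpi, Saa3 and C3. The remaining pair of these genes, Saa3 and C3, had a mean r of 0.005, at -0.011, -0.006 and 0.033 in vehicle 1, vehicle 2 and EV 1. The pair with the highest mean correlation of log UMIs was Lcn2 and Slpi, at a mean r of 0.21 over the 3 libraries (0.20 to 0.22). Slpi was detected in 31.1% of the Lcn2-positive feeders of vehicle 1 and in 14.8% of the others, in 28.3% against 12.6% in vehicle 2, and in 20.5% against 7.69% in EV 1. Lcn2 and Saa3 followed at a mean r of 0.13, Saa3 and Slpi at 0.10, and Lcn2 and C3 at 0.08. Lcn2 was found in 9 of 20, 18 of 35 and 13 of 22 Saa3-positive feeders. All points of a correlation share 1 library and a depth of 1000 UMIs, and counts this sparse keep r low.

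The 6 genes most like the members over 2260, 2422 and 2324 thinned feeders were taken by the mean over libraries of r with the members' summed log UMIs, among 9697 genes. They were Fth1, the ferritin heavy chain, at 0.21, the secreted phosphoprotein Spp1 at 0.21, the neutrophil chemokine Cxcl1 at 0.18, the monocyte chemokine Ccl2 at 0.15, the actin-severing protein Dstn at 0.14 and the interferon-induced Ifitm3 at 0.12. Between arms their levels differed in direction. Cxcl1 was at 209.5, 182 and 511 CPM in vehicle 1, vehicle 2 and EV 1, Ccl2 at 1606, 1504 and 1086 CPM, and Ifitm3 at 1564, 1474 and 675 CPM.

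The wider pathway was read from gene lists, counting genes with at least 50 UMIs in feeders. Of the 12875 genes that reached this minimum, 2.41% were called higher and 4.94% lower. Of the members, 9 of 10 reached it. Among NF-kB subunits and inhibitors other than the members, 0 of 16 were called, with a median log2 ratio of -0.08. Zc3h12a, an RNase that degrades cytokine mRNAs, was at 15.7, 17.9 and 26.6 CPM in vehicle 1, vehicle 2 and EV 1, and Tnip3, a partner of A20, at 10.1, 7.70 and 4.86 CPM. The others at the ends of this list were Otulin and Rel, at log2 ratios of 0.26 and 0.15, and the inhibitors Nfkbie and Nfkbib, at -0.64 and -0.57. Among kinases and adaptors, 0 of 31 were called, with a median of -0.08, and the range over the list ran from -0.65 for Traf5 to 0.69 for Traf6, both signalling adaptors. Map3k8 and Ikbkg were at 0.61 and 0.31, and Birc3 and Rbck1 at -0.65 and -0.49.

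Among 10 measured ligands, Lif, a cytokine of the interleukin 6 family, was called higher at 44.2, 39.3 and 83.7 CPM, and Csf1, the macrophage growth factor, lower at 119, 119 and 57.2 CPM. Csf3, the granulocyte growth factor, was just short of the call at 6.00, 5.38 and 11.3 CPM, a log2 ratio of 0.99, while Tslp was at 0.21, Il18 at -0.72 and Csf2 at -0.78. Among 17 receptors 1 was called, Tlr2, a sensor of bacterial lipoproteins, lower at 11.3, 9.56 and 4.56 CPM. The median of the receptors was -0.38. Tnfrsf12a, the receptor of the cytokine TWEAK, was at 99.0, 99.2 and 173 CPM, a log2 ratio of 0.80, Lifr and Il1rl1 were at 0.50 and 0.39, and Il1rap and Il6ra at -0.53 and -0.48. Among 24 other NF-kB targets, 3 were called higher and 2 lower. Nos2, the inducible nitric oxide synthase, was at 28.4, 29.6 and 87.7 CPM, Ier3, an early-response survival gene, at 639, 647 and 1836 CPM, and the protease Mmp10 at 9.68, 8.91 and 26.3 CPM. Vcam1, an adhesion molecule for leukocytes, was at 115, 118 and 28.2 CPM, and the gelatinase Mmp9 at 13.3, 10.1 and 2.21 CPM. Genes of this list were thus called in both directions. The lists were chosen with earlier results of these data known, so nothing is read from these counts. Cebpd, a C/EBP factor induced in the acute phase, was at 261, 269.7 and 138 CPM, a log2 ratio of -0.94.

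Among acute-phase and complement genes other than the members, 5 of 15 were called lower and 1 higher, with a median of -0.41. Those lower included the metalloreductase Steap4, at 22.0, 23.0 and 3.68 CPM, the serine protease inhibitors Serpina3n, at 11.5, 12.2 and 2.94 CPM, and Serpina3g, at 23.2, 23.6 and 6.33 CPM, and the copper carrier Cp at a log2 ratio of -1.53. C3ar1, the receptor for the C3a fragment, was called higher at 1.68, 1.30 and 3.24 CPM from 52 UMIs in all. Among prostaglandin genes other than Ptgs2, 0 of 10 were called, with a median of -0.09. Ptges, the synthase of prostaglandin E2 downstream of Ptgs2, was at 99.0, 99.4 and 131 CPM and Ptgs1, the constitutive cyclooxygenase, at 106, 106 and 70.0 CPM. Tbxas1 and Slco2a1 were at log2 ratios of 0.94 and 0.93 from 64 and 53 UMIs in all, and Ptges2 and Ptgis at -0.75 and -0.33. Among 8 measured partners of the member proteins, 3 were called lower and 1 higher, of which Tlr2, Mmp9 and C3ar1 are also in the lists above and the elastase Cela1 was at 6.63, 6.40 and 2.50 CPM.

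**Figure D4:**
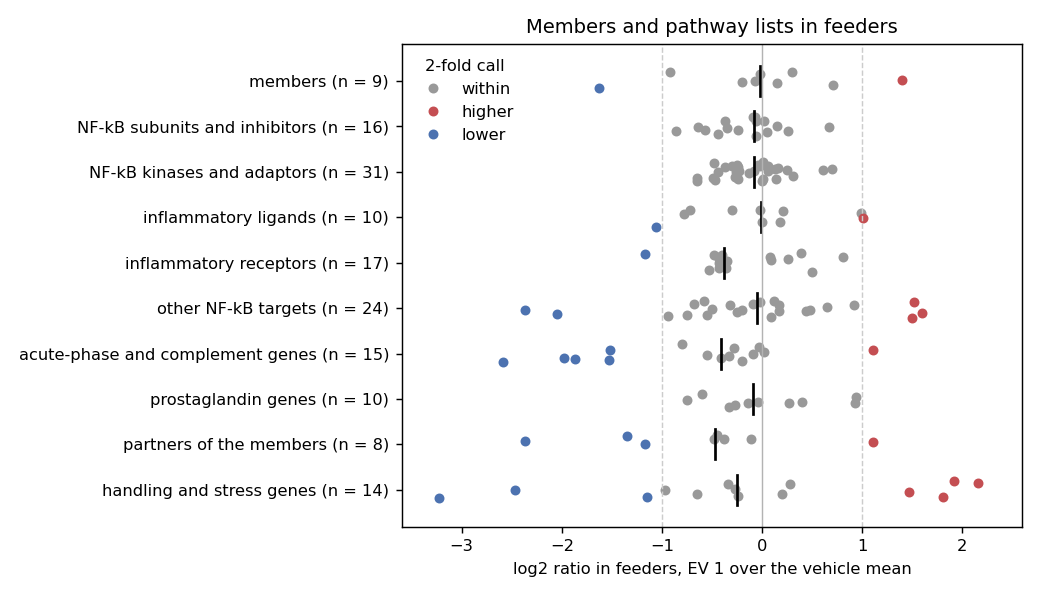
The log2 ratio of EV 1 over both vehicle libraries' mean in feeders for each gene with at least 50 UMIs, 1 row per list, with a black bar at the median and dashed lines at 2-fold. Subunits, inhibitors, kinases and adaptors stay within the dashed lines, while targets and acute-phase genes lie on both sides of them.

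Handling and stress genes differed between the libraries as well, with 4 of 14 called higher and 3 lower. Cryab, a small heat shock protein, was at 60.9, 73.4 and 299 CPM in vehicle 1, vehicle 2 and EV 1, and the metal-binding Mt1 at 2637, 2535 and 9064 CPM and Mt2 at 400.3, 395 and 1503 CPM. The heme oxygenase Hmox1 was called higher too, at a log2 ratio of 1.47. The immediate early genes Fos, at 159, 148 and 16.3 CPM, Fosb, at 110.4, 97.5 and 18.7 CPM, and Egr1, at 91.4, 97.1 and 42.5 CPM, were called lower. Their part in the values of C3, Slpi and Ptgs2 was not tested, and with 1 EV library the treatment and the library cannot be told apart.

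In germ cells the members other than Icam1 were lower than in feeders in both vehicle libraries. Lcn2 in germ cells was 3.78% and 3.34% of its feeder level in vehicle 1 and vehicle 2, Slpi 4.94% and 4.34%, Ptgs2 5.70% and 5.05%, and C3 11.0% and 8.41%. The lowest of the 10 fibroblast markers stood at 4.27% and 4.26%, so Lcn2 was below all of them and Slpi, Ptgs2 and C3 lay within their range. Whether these UMIs came from feeder RNA or from germ cells was not tested. In EV 1 C3 was at 33.9% of its feeder level (0.174 to 0.595 as a ratio) from 12 germ cell UMIs, Ptgs2 at 15.6% from 4, Lcn2 at 3.94% from 4 and Slpi at 3.63% from 2. Nfkbia was at 17.8% and 16.4%, Nfkbiz at 22.7% and 19.6% and Tnfaip3 at 20.1% and 17.7% in vehicle 1 and vehicle 2, also within that range. Nfkbia had 635 and 751 germ cell UMIs, or 67.2 and 67.9 CPM.

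Icam1 ran the other way. It stood at 12.7 CPM in germ cells against 0.737 CPM in feeders in vehicle 1, and at 13.8 against 0.371 CPM in vehicle 2. The germ cell level was 17.2-fold (8.11 to 43.8) and 37.3-fold (14.3 to 138) the feeder level, from 120 and 153 germ cell UMIs. The feeder level was 5.80% and 2.68% of the germ cell level, from 7 and 4 UMIs, beside 3.20% and 2.63% for the summed germ cell markers. Taken singly, those markers ran from 2.07% to 4.29% in vehicle 1 and from 1.34% to 4.58% in vehicle 2. Icam1 was thus above all of them in vehicle 1 and within their range in vehicle 2. On so few UMIs it is not read as expression in feeders, and the folds rest on a value near background. In EV 1 the values were 18.5 and 0.441 CPM, from 6 and 3 UMIs, and the ratio of 41.9 had an interval of 8.95 to 259. After thinning to 1000 UMIs, Icam1 was detected in 1.40% and 1.18% of vehicle germ cells and in 1 of 2260 and 0 of 2422 vehicle feeders, the latter allowing at that depth up to 0.124% of feeders with a UMI by a limit of 3 counts, or 0.158% by the Wilson interval. Without thinning, Icam1 was detected in 0.298% and 0.161% of vehicle feeders and in 2.65% and 3.18% of vehicle germ cells. Gm47079 overlaps Icam1 on the opposite strand, and its reads are told apart only where the counting used strand.

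The EV comparison in germ cells had little depth, since EV 1 held 226 germ cells with 324434 UMIs, and 3 counts there correspond to 9.25 CPM. Of the 9676 genes with at least 200 UMIs in germ cells, 4.13% were called higher and 4.39% lower, and of the 5 members that reached this minimum 0 were called. Nfkbia was at 67.2, 67.9 and 83.2 CPM and its ratio to the pooled vehicle libraries, 1.23, had an interval of 0.809 to 1.80. C3 was at 37.5, 27.9 and 37.0 CPM, with a ratio of 1.14 and an interval of 0.588 to 2.01. Saa3 and Il6 had 0 UMIs in EV 1 germ cells, and no fold is given. Ptgs2 and Tnfaip3 had 4 and 3 UMIs there, and their ratios to vehicle of 7.67 (1.97 to 21.6) and 8.62 (1.65 to 28.7) rest on those counts.

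**Figure D5:**
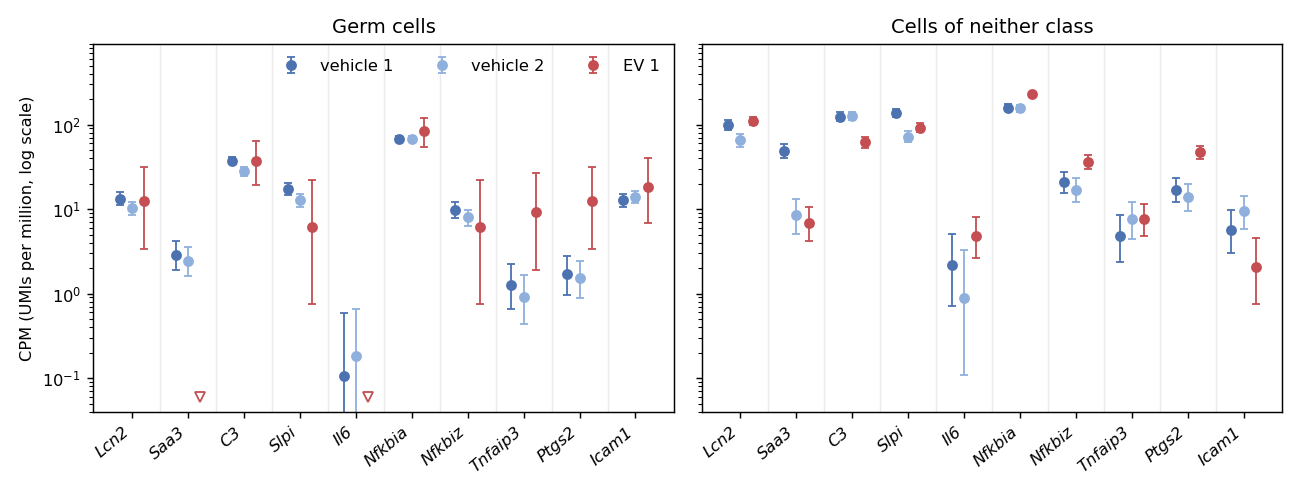
CPM of each member on a log axis in germ cells and in cells of neither class, with 1 point per library and exact Poisson 95% intervals, where open triangles mark libraries with 0 UMIs. Icam1 in germ cells lies between 12.7 and 18.5 CPM, and C3 is lower and Ptgs2 higher in the EV 1 cells of neither class.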

How the data were processed

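Libraries were made by the authors with a 10x Genomics droplet kit, and per the submitters' processing notes UMIs were counted with Cell Ranger 7.0.1 on mm10. The deposited values are raw UMI counts per gene and barcode, not normalised. Counts of 3 of the 4 libraries were used, and those of EV 2 were not analysed here. The members and all gene lists were chosen with earlier results of these data known. The filters of the study's methods were applied, which keep barcodes between 400 and 4000 genes whose mitochondrial UMIs are less than 10%. Scrublet (scanpy 1.11.5) ranked likely doublets, of which 0.8% per 1000 cells were discarded from the top, which left 8263, 8637 and 4779 cells of vehicle 1, vehicle 2 and EV 1, from libraries of 23686047, 27444797 and 10793232 UMIs. For each class of each library the UMIs were summed and expressed as CPM, with an exact Poisson interval (scipy 1.17.1). With 0.5 UMI added to a sum, EV 1 was divided by the mean of both vehicle libraries for the log2 ratio. An exact conditional interval goes with each ratio to the pooled vehicle libraries. Intervals cover counting error only, and a library's cells are not replicates. Free RNA was not removed.

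All 10 members, the 6 genes most like them, and from each list up to 3 genes at either end of the log2 ratio among those with at least 50 UMIs and outside the vehicle range were named. Cp and Hmox1 were named in addition, chosen after their values were seen. Alternative scalings used edgeR 4.0.16 and DESeq2 1.42.0. Leiden clusters (resolution 0.5, 2000 variable genes, 30 components, 20 neighbours) served as an alternative to the class rule and to divide the feeders.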

Additional observations from a re-analysis of the deposited data

Results flagged for a closer look

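The log2 ratio of Nfkbia was below 0 in feeders and above 0 in the other classes. Its log2 ratio, EV 1 over the mean of both vehicle libraries, was -0.20 in feeders and 0.33 in germ cells, where EV 1 had 27 UMIs, and 0.54 in cells of neither class, at 159, 155 and 228 CPM in vehicle 1, vehicle 2 and EV 1. In each class EV 1 lay outside the range of the vehicle libraries, and the difference between classes was not tested. The ratio to the pooled vehicle libraries in germ cells, 1.23, had an interval of 0.809 to 1.80 that spans equality. Feeders under 2000 UMIs had the positive direction as well, at 210.1, 265 and 292 CPM with a ratio of 1.24 (1.05 to 1.46), whereas the feeders of cluster 3, also shallow at medians of 2121, 2177 and 1622 UMIs, were at 164, 203 and 152 CPM with EV 1 below both vehicle libraries. The part of depth in these values was not tested.

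The cells of neither class also held the members. They were left out of the feeder comparison as reported. The alternative that added them to the feeders took in all of them. The alternatives with a class rule of at least 1 marker UMI and with classes by cluster could take in some. Ptgs2 was at 17.0, 13.9 and 46.8 CPM there, a log2 ratio of 1.58, and C3 at 124, 127 and 62.0 CPM, a log2 ratio of -1.02. Both had the direction seen in feeders. Il6 was called higher there from 5, 2 and 14 UMIs, with a ratio to the pooled vehicle libraries of 3.12 (1.18 to 9.12). Slpi was at 137, 72.1 and 91.6 CPM with EV 1 between the vehicle libraries, and Icam1 was at 5.68, 9.41 and 2.07 CPM from 13, 21 and 6 UMIs. Saa3 was at 49.3, 8.51 and 6.89 CPM, a log2 ratio of -2.05, with vehicle 1 apart from vehicle 2 and EV 1.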

How the results depend on the processing

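Each member's log2 ratio in feeders was recomputed under 15 alternatives, 1 of them (feeders together with cells of neither class) chosen after seeing the data. Of 150 values, 131 kept their sign and 33 moved by more than the spread of the vehicle libraries. Without the 1% of feeders richest in a gene, no UMI of Il6 or Icam1 remained. Their values in that alternative (0.57 for each) come from the added 0.5 UMI alone, and these counts and the median there include them. C3 stayed between -1.75 and -1.49 and Ptgs2 between 1.30 and 1.54, past 2-fold under all 15, Slpi ranged from -1.11 to -0.79, and Saa3 from -0.86 to 1.15. The median over the members was 0.066 with thinning to 1000 UMIs, -0.24 with feeders from clusters, -0.15 without the richest 1% of feeders and -0.17 with cells of neither class added. The members called higher were 3 with thinning (Ptgs2, Il6 and Icam1), and 2 with clusters and 2 with cells of neither class added (Ptgs2 and Il6). With thinning, Il6 rested on 1, 2 and 5 UMIs and Icam1 on 1, 0 and 2 in vehicle 1, vehicle 2 and EV 1. Members called lower were 2 with an equal weight per cell, with clusters and without the richest 1%. Leaving out a vehicle library gave 2 called higher in either case, Ptgs2 with Il6 without vehicle 1 and with Saa3 without vehicle 2, and 1 to 2 called lower. With 1 vehicle library left there is no range, so only the 2-fold part of the call applied. The cause was not tested. The median over all genes in feeders was -0.13 with total UMIs, -0.06 with edgeR factors and -0.04 with DESeq2 size factors. The share of genes called was 2.41% higher and 4.94% lower from 50 UMIs, and 12.6% and 10.8% with no minimum. The median of 5 members in germ cells was 0.23, 0.47 with clusters and 0.33 with an equal weight per cell. No paired analysis was possible because the counts of EV 2 were not analysed here, so the arms share a single replicate number.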
